A study of Mus musculus with 6 samples.

Results

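The Myc, Max and Mxd network is a set of transcription factor genes, here Myc, Mycn, Mycl, Max, Mxd1, Mxd3, Mxd4, Mxi1, Mnt and Mlxip. The members were taken by name, and 9 of the 10 were found among the 17558 genes of the table. Mycn (NCBI gene 18109) has no row there and was not analysed here. All 9 genes found had enough reads to be tested.

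The proteins of this network share a basic helix-loop-helix leucine zipper, bind DNA in pairs and compete for a common partner, Max. Pairs of Max with Myc, Mycn or Mycl switch genes for growth and division on, while pairs of Max with Mxd proteins, Mxi1 or Mnt recruit corepressors and oppose them at the same E-boxes. A side branch pairs Mlxip, also called MondoA, with Mlx and responds to glucose metabolites. In muscle precursors, Myc is known to be high while cells divide and to fall as they withdraw from the cycle and fuse.

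The 6 libraries were of RNA from C2C12, a mouse myoblast cell line that grows without limit and forms myotubes in low serum. All cells stably carried a short hairpin RNA and were taken 48 h after the change to differentiation medium, which held horse serum and an insulin, transferrin and selenium supplement. The 3 groups of 2 libraries were a non-targeting scrambled hairpin (shScr, genotype label WT), a hairpin against the Pkm1 splice form of pyruvate kinase (shPkm1) and a hairpin against the Pkm2 form (shPkm2). Whether the libraries came from separate cultures or clones is not stated, so p-values measure the spread between these libraries, which may be technical.

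Library totals ran from 18216896 to 19796036 estimated counts. The 2 shScr libraries differed from each other more than the other pairs did, with a chi-square of 32.3 per degree of freedom over genes, against 6.16 for shPkm1 and 6.93 for shPkm2. The Pkm1 transcript, at 546 and 589 TPM in shScr, was at 243 and 218 in shPkm1 and at 254 and 254 in the shPkm2-labelled libraries. The Pkm2 transcript was at 1073 and 1517 TPM in shScr, 1278 and 1379 in shPkm1, and 2700 and 2630 in the shPkm2-labelled libraries. The shPkm2-labelled libraries thus go against that label, since the Pkm2 form was not lower in them, and every direction given for them below is for libraries so labelled, not for cells with less Pkm2. Both groups other than shScr are named Pkm hairpin groups here.

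Muscle differentiation markers and cell cycle markers moved with the groups. The summed level of 7 muscle differentiation genes was 37257 and 26600 CPM (counts scaled to library size) in shScr, 10852 and 12449 in shPkm1, and 1423 and 1378 in the shPkm2-labelled libraries, and 7 of 7 fell in each comparison. The summed level of 5 cell cycle genes was 259 and 306 CPM, 569 and 581, and 1660 and 1515 in the same order. Of these, 4 of 5 rose in shPkm1, where Cdk1 was 0.06 from shScr (adjusted p = 0.65), and 5 of 5 in each of the other comparisons. By the test given below, 31.4% of all tested genes were lower and 31.8% higher in shPkm1 than in shScr. In the shPkm2-labelled libraries 34.2% were lower and 33.9% higher than in shScr, and 27.3% and 25.7% than in shPkm1. Myog, which drives the onset of fusion, was at 2335 and 1987, 1096 and 1162, and 49.2 and 56.9 CPM, and Mymk, a fusion protein gene, at 2651 and 2280, 918 and 938, and 13.9 and 16.2. Mki67, a proliferation marker, was at 67.7 and 80.9, 203 and 206, and 613 and 501 CPM, and Top2a at 85.7 and 96.1, 187 and 192, and 523 and 481. The part of these shifts in the results below was not tested, and in bulk RNA fewer cells of a type and less RNA per cell cannot be told apart. Markers of other lineages were scarce: Adipoq and Plin1 had at most 1 count in a library, Sp7 at most 5, and the endothelial genes at most 15. The summed adipocyte and osteoblast lists, carried by Cebpa and Runx2, were at 10.7 to 11.7 and 14.4 to 20.4 CPM in shScr, and at 23.3 to 27.4 and 38.6 to 44.7 in the other 4 libraries. Of the leukocyte list, only Cd68 had a row, with 9 to 49 counts.

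Promoter windows in RefSeq (build GRCm38.p6, from 250 bases before to 50 after an annotated start) were matched for 9 of the 10 member genes, in 11 windows, with none for Myc. They were searched on both strands for CACGTG, the E-box that Myc and Max pairs and Mxd and Max pairs both bind, for CAGCTG, the E-box form of muscle regulators such as Myod1, and for TTCCCGC and TTGGCGC, E2F-type motifs of cell cycle genes. No motif searched overlapped another in the windows of the members shown. CACGTG was in the windows of 3 of the 9 genes, Max, Mxd4 and Mnt, and in 7.15% of all 32851 promoter windows. The end of the Max window was not found in a GENCODE transcript, so its place at a start of Max is uncertain and it is not printed. CAGCTG was in no member window and in 16.3% of all windows, TTCCCGC was in that of Mxd3 and in 4.60% of all, and TTGGCGC in that of Mycn and in 2.45% of all. A match is a description of these letters only.

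The windows of Mxd4, Mnt and Mxd3 are shown from 250 bases before to 10 after the start, since these are the antagonist genes with a searched motif. Capitals mark CACGTG in Mxd4 (first base 219 upstream of the start) and in Mnt (123 upstream), and in Mxd3 the letters that read TTCCCGC on the opposite strand (136 upstream).
Mxd4, chr5:34187701-34187960, minus strand: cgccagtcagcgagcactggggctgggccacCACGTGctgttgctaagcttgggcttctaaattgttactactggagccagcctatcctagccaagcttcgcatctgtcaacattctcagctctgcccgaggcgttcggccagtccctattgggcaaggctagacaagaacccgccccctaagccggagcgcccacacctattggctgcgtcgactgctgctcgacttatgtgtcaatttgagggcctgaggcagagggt
Mnt, chr11:74830674-74830933, plus strand: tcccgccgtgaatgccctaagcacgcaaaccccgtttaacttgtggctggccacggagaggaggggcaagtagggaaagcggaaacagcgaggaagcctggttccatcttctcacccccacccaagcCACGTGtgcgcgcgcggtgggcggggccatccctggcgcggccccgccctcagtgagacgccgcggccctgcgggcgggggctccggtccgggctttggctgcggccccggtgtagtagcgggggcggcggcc
Mxd3, chr13:55329722-55329981, minus strand: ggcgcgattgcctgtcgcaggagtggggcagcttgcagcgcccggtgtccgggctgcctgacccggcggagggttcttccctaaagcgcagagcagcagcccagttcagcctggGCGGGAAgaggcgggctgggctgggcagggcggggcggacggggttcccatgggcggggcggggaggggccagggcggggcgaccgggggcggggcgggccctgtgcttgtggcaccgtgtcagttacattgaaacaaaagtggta

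Max is made in a longer and a shorter form that differ by exon 2 of the longer one, 27 bases at chr12:76961263-76961289 (build GRCm38, minus strand) that add 9 codons just before the basic region. The exon is shown because it sets apart the forms whose counts are given below. Capitals mark the exon, with 30 bases of each neighbouring exon in lower case, read from the GENCODE M21 transcripts.
Max with the exon, 160 codons: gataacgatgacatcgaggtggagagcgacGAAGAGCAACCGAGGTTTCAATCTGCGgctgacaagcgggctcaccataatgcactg
Max without the exon, 151 codons: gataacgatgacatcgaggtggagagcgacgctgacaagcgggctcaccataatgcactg

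Levels between genes were compared in TPM, which is scaled to transcript length as well as to the library. The lengths behind the deposited TPM are not stated. In shScr replicate 1, Mxd4 had 37.2 TPM from 507 counts, and Mxd1 7.55 TPM from 426 counts. GENCODE gives the Mxd4 transcript 3872 bases and that of Mxd1 4666, so a shorter length was behind the Mxd4 TPM. The rank of Mxd4 and its shares below rest on that length. In shScr the order of mean TPM was Mxd4 (53.4 ± 23.0, SD, n = 2), Max (28.6 ± 1.51), Mycl (23.5 ± 4.77), Myc (21.1 ± 0.651), Mxi1 (17.4 ± 1.33), Mxd3 (10.6 ± 3.41), Mlxip (7.75 ± 0.354), Mnt (7.63 ± 1.37) and Mxd1 (7.23 ± 0.453). Mycl and Myc overlapped there, as did Mlxip, Mnt and Mxd1, and Mxd3 overlapped Mnt. In shPkm1, Mxd4 led at 110.5 ± 2.98 TPM, followed by Max at 47.9 ± 4.04, with Mxd3 (40.9 ± 2.76) and Myc (40.6 ± 2.42) overlapping behind it. In the shPkm2-labelled libraries, Mxd3 (48.1 ± 4.11 TPM), Max (45.7 ± 0.00707) and Mxd4 (45.2 ± 1.10) overlapped at the top, and Mxd1 was the lowest member at 2.14 ± 0.290. By group mean, Mxd3 was sixth in shScr and first in these libraries, where Max was above it in replicate 2 (45.73 against 45.23 TPM).

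**Figure D1:**
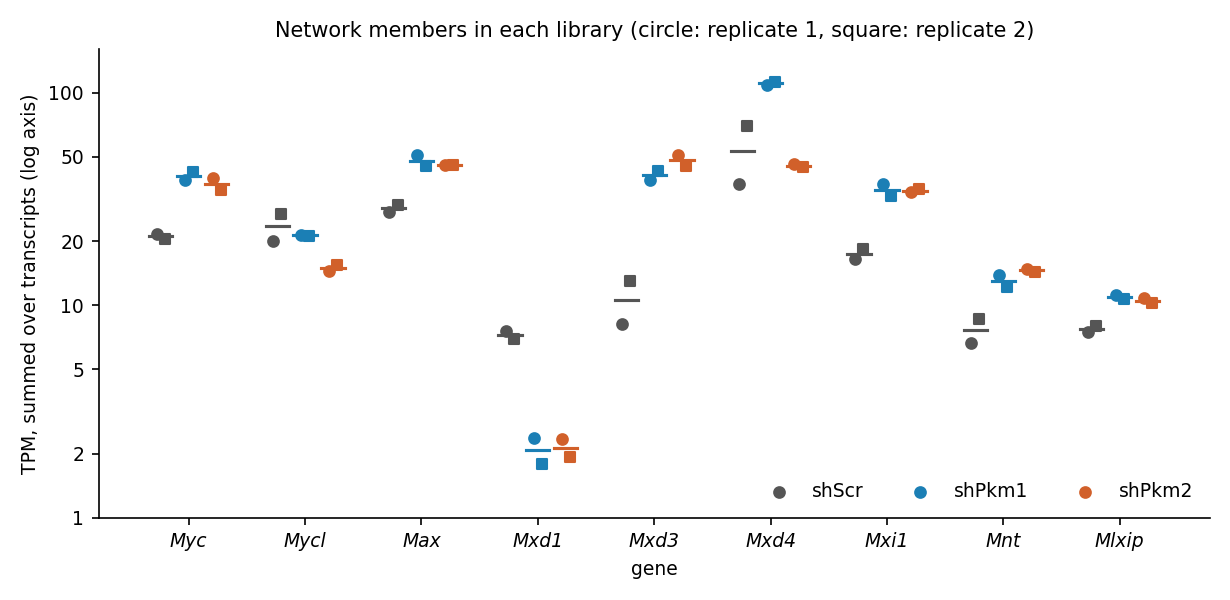
Level of each member in each library, in TPM summed over a gene's transcripts on a log axis; bars are group means of 2 libraries, circles replicate 1 and squares replicate 2. Mxd1 lies near 7 TPM in shScr and at 1.80 to 2.37 in the other 4 libraries, and Mxd3 lies at 8.19 and 13.0 in shScr and at 38.9 to 51.1 in the others.

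Changes were tested on counts with edgeR's quasi-likelihood test, and a gene is called where its Benjamini-Hochberg adjusted p over 12643 tested genes was under 0.05. Between shPkm1 and shScr 8 of the 9 members were called, 6 higher and 2 lower, where 63.1% of all tested genes were called (31.8% higher, 31.4% lower). Between the shPkm2-labelled libraries and shScr 7 of 9 were called, 4 higher and 3 lower, beside 68.0% of all genes (33.9% higher, 34.2% lower). Between the shPkm2-labelled libraries and shPkm1 2 of 9 were called, both lower, beside 53.0% (25.7% higher, 27.3% lower). The median log2 fold change of the members was 0.38, 0.23 and -0.11 in the 3 comparisons, and that of all tested genes was within 0.01 of 0. Both comparisons with shScr share its 2 libraries. With library totals in place of TMM scaling, the median of all genes was 0.19, 0.33 and 0.135, the members' counts were 7 higher and 2 lower, 5 higher and 2 lower, and 0 higher and 2 lower, and their medians were 0.58, 0.56 and 0.02. Of all 12643 tested genes, 5116, 6095 and 4280 were then higher and 2656, 2702 and 2699 lower. On log2(TPM + 1) several sizes also moved against shScr (shPkm1, then the shPkm2-labelled libraries): Myc was at 0.91 and 0.80, Mxi1 at 0.965 and 0.954, Mnt at 0.70 and 0.86, and Mxd1 at -1.42 and -1.39, all still called by limma.

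**Figure D2:**
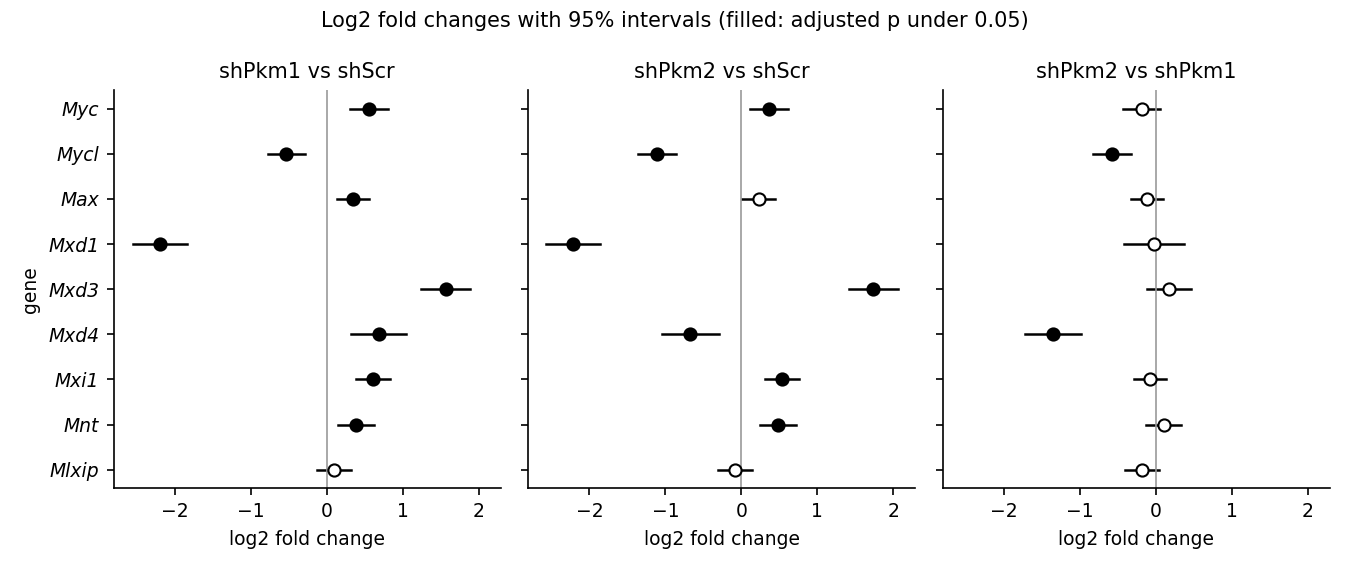
Log2 fold change of each member with its 95% interval in the 3 comparisons, from edgeR on TMM-scaled counts; filled points have an adjusted p under 0.05. Mxd1 lies at -2.20 and -2.22 and Mxd3 at 1.57 and 1.74 against shScr, and only Mycl and Mxd4 are filled in the comparison of the shPkm2-labelled libraries with shPkm1.

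Myc (NCBI gene 17869, chr15:61985341-61990361, plus strand), the activator best known for ribosome production and entry into the cycle, rose in both Pkm hairpin groups. Its TMM-scaled level was 39.0 and 33.0 CPM in shScr, 49.2 and 56.5 in shPkm1, and 48.1 and 44.7 in the shPkm2-labelled libraries. Both shScr libraries lie below the other 4. For shPkm1 relative to shScr the log2 fold change was 0.55 (SE 0.116, adjusted p = 0.00105), and for the shPkm2-labelled libraries 0.37 (SE 0.116, adjusted p = 0.013). The second call was lost without shScr replicate 2 (0.25, adjusted p = 0.0569) and without shPkm2 replicate 1 (0.32, adjusted p = 0.0935). The level of the shPkm2-labelled libraries relative to shPkm1 was -0.19 on the log2 scale, with a 95% interval from -0.43 to 0.06 (adjusted p = 0.183).

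Mycl (NCBI gene 16918, chr4:122995588-123002490, plus strand), the L-Myc gene, moved the other way and in steps. It was at 52.8 and 62.5 CPM in shScr, 38.5 and 41.1 in shPkm1, and 25.2 and 28.2 in the shPkm2-labelled libraries, with no overlap between any 2 groups. Against shScr, on the log2 scale, Mycl fell by 0.53 in shPkm1 (SE 0.113, adjusted p = 0.0011) and by 1.11 in the shPkm2-labelled libraries (SE 0.115, adjusted p = 1.8e-06). The step between the Pkm hairpin groups was -0.58 (SE 0.116, adjusted p = 0.000918). On library totals the first of these was -0.34 (adjusted p = 0.0293), and on log2(TPM + 1) it was -0.12 (limma, adjusted p = 0.499), where the call ended. Mycl and Mxd4 were the members called in all 3 comparisons, and of them Mycl was lower in both Pkm hairpin groups.

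The make-up of the Myc family differed accordingly within each library. Myc was 51.7% and 43.4% of the summed Myc and Mycl TPM in shScr, 64.5% and 66.5% in shPkm1, and 73.4% and 69.4% in the shPkm2-labelled libraries. These shares do not depend on how libraries are scaled to each other, and the 3 groups do not overlap. They were not tested, and each group has 2 libraries.

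Max (NCBI gene 17187, chr12:76937269-76962323, minus strand), a partner shared by Myc, Mxd, Mxi1 and Mnt proteins, was called in 1 of the 3 comparisons. Its level was 40.6 and 38.6 CPM in shScr, 51.6 and 48.8 in shPkm1, and 45.2 and 47.6 in the shPkm2-labelled libraries. It rose by 0.34 (SE 0.0995, adjusted p = 0.00882) in shPkm1, a call that was lost without shPkm1 replicate 1 (0.32, adjusted p = 0.0614). The same difference was 0.54 on library totals (adjusted p = 0.00063) and 0.72 on log2(TPM + 1) (limma, adjusted p = 0.000171). In the shPkm2-labelled libraries the difference was 0.23 with a 95% interval from 0.02 to 0.44 (adjusted p = 0.0552). That value passed the threshold without shScr replicate 1 (0.27, adjusted p = 0.0394), on library totals (0.56, adjusted p = 0.00037) and on log2(TPM + 1) (0.66, limma, adjusted p = 0.000249).

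The estimated counts of the form of Max without the exon printed above (NM_001146176.1) were 40.1% and 42.8% of the gene's counts in shScr, 60.3% and 47.6% in shPkm1, and 61.0% and 53.7% in the shPkm2-labelled libraries. The longer form (NM_008558.2) held 50.7% and 50.7%, 33.9% and 44.6%, and 33.4% and 41.8%. Shares of the shorter form in shScr lie below those of all 4 other libraries. By TPM the shorter form was at 10.9 and 12.6, 30 and 21.2, and 27.8 and 24.4, and the longer form at 13.6 and 14.7, 16.6 and 19.6, and 15.03 and 18.7. The log2 fold changes of the shorter form against shScr were 0.76 (adjusted p = 0.061) and 0.72 (adjusted p = 0.0526), which miss the threshold over 33433 tested transcripts. Those of the longer form were 0.00 (95% interval -0.53 to 0.53, adjusted p = 1) and -0.16 (adjusted p = 0.68). The split of reads between forms that share all other coding exons depends on the authors' counting.

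Among the antagonists, 2 members moved far and in opposite directions. Mxd1 (NCBI gene 17119, chr6:86647044-86669234, minus strand), also called Mad1 and known for its rise when cells leave the cycle and differentiate, was at 27.0 and 21.9 CPM in shScr. It was at 5.91 and 4.75 in shPkm1 and at 5.60 and 4.87 in the shPkm2-labelled libraries, from 94 to 119 counts a library. Mxd1 was 4.58-fold lower in shPkm1 (log2 -2.20, SE 0.166, adjusted p = 1.66e-07) and 4.66-fold lower in the shPkm2-labelled libraries (log2 -2.22, SE 0.164, adjusted p = 6.63e-08). The Pkm hairpin groups overlapped, and their difference was -0.02 with a 95% interval from -0.42 to 0.38 (adjusted p = 0.925). A noncoding RNA gene, Gm38850, lies within the span of Mxd1 in RefSeq, and the counting is not stated to use strand.

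Mxd3 (NCBI gene 17121, chr13:55325170-55329900, minus strand), the Mxd gene known to be expressed in dividing cells during S phase, was at 7.92 and 11.0 CPM in shScr. It was at 26.1 and 30.2 in shPkm1 and at 32.7 and 30.7 in the shPkm2-labelled libraries. Mxd3 was 2.96-fold higher in shPkm1 (log2 1.57, SE 0.150, adjusted p = 1.41e-06) and 3.33-fold higher in the shPkm2-labelled libraries (log2 1.74, SE 0.149, adjusted p = 2.89e-07). Both shScr libraries lie far below the others, while the Pkm hairpin groups differed by 0.17, with a 95% interval from -0.12 to 0.46 (adjusted p = 0.302). The TPM of Mxd3 per TPM of Mxd1 was 1.09 and 1.88 in shScr, 16.4 and 23.8 in shPkm1, and 21.8 and 23.4 in the shPkm2-labelled libraries. The end of the Mxd3 gene overlaps that of Prelid1, so reads there may belong to either gene.

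Mxd1 and Mxd3 kept these directions, past the threshold, against shScr under all 14 alternative settings tried, from -2.36 to -1.39 for Mxd1 and from 1.36 to 2.11 for Mxd3. Their change moved with the markers given above: Mki67 and Mxd3 were both lowest in shScr, and Myog and Mxd1 both highest there. The order differs in the Pkm hairpin groups, where Myog was at 1096 and 1162 CPM in shPkm1 against 49.2 and 56.9 in the shPkm2-labelled libraries, while the levels of Mxd1 overlapped.

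Mxd4 (NCBI gene 17122, chr5:34176580-34187710, minus strand), an antagonist found in many resting and differentiated tissues, was the member with called changes in opposite directions against shScr in the Pkm hairpin groups. It was at 32.1 and 53.0 CPM in shScr, 65.4 and 71.5 in shPkm1, and 26.5 and 27.1 in the shPkm2-labelled libraries. Relative to shPkm1 it was 2.56-fold lower in the shPkm2-labelled libraries (log2 -1.36, SE 0.172, adjusted p = 2.05e-05), and this value ran from -1.43 to -1.23 over the alternatives. Against shScr it was 0.68 higher in shPkm1 (SE 0.169, adjusted p = 0.0033) and 0.67 lower in the shPkm2-labelled libraries (-0.67, SE 0.175, adjusted p = 0.00386).

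The 2 shScr libraries were far apart for Mxd4, and both comparisons with shScr rest on which of them is used. The shPkm1 value was 0.37 (adjusted p = 0.00345) without shScr replicate 1 and 1.09 (adjusted p = 9.38e-12) without shScr replicate 2. The value of the shPkm2-labelled libraries lost its call without shScr replicate 2 (-0.26, adjusted p = 0.0549), on library totals (-0.36, adjusted p = 0.111) and on log2(TPM + 1) (-0.17, limma, adjusted p = 0.488). The shPkm1 value and the difference between the Pkm hairpin groups were also called under all 14 alternative settings.

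Mxi1 (NCBI gene 17859, chr19:53310128-53373293, plus strand), the Mxd2 protein's gene, and Mnt (NCBI gene 17428, chr11:74830806-74845725, plus strand), a Max partner present in dividing and resting cells alike, both rose. Mxi1 was at 30.9 and 29.9 CPM in shScr, 47.6 and 45.2 in shPkm1, and 42.2 and 45.9 in the shPkm2-labelled libraries. Its log2 fold changes against shScr were 0.61 (SE 0.103, adjusted p = 0.000188) and 0.54 (SE 0.102, adjusted p = 0.000423). The Pkm hairpin groups overlapped, at -0.08 with a 95% interval from -0.29 to 0.14 (adjusted p = 0.542). The span of Mxi1 overlaps a noncoding RNA gene, Gm30541, in RefSeq.

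Mnt was at 23.5 and 26.9 CPM in shScr, 34.1 and 31.7 in shPkm1, and 34.8 and 35.8 in the shPkm2-labelled libraries. Its log2 fold changes against shScr were 0.38 (SE 0.110, adjusted p = 0.00823) and 0.49 (SE 0.109, adjusted p = 0.00143). The first was lost without shPkm1 replicate 1 (0.35, adjusted p = 0.0624). Neither group of Pkm hairpin libraries reached down to shScr, and they differed from each other by 0.10 (95% interval -0.13 to 0.33, adjusted p = 0.438). Mga, a large Max partner outside the member list that represses germ cell genes, was at 18.4 and 15.4, 32.9 and 27.7, and 29.6 and 28.6 CPM, with log2 fold changes of 0.84 (adjusted p = 7.9e-05) and 0.79 (adjusted p = 0.000105) against shScr.

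The summed TPM of the antagonists Mxd1, Mxd3, Mxd4, Mxi1 and Mnt was 76.0 and 116.5 in shScr, 201 and 202 in shPkm1, and 148 and 141 in the shPkm2-labelled libraries. That of Myc and Mycl was 41.7 and 47.5, 60.3 and 63.5, and 54.2 and 50.4. The Myc family made up 35.4% and 29.0% of the sum of both in shScr, 23.1% and 23.9% in shPkm1, and 26.8% and 26.3% in the shPkm2-labelled libraries. By this measure shScr, the group with the lowest Myc, had the highest share of Myc family transcripts, and the shares of the 3 groups do not overlap. These sums and shares, and those within the antagonists below, take in the Mxd4 TPM and so the transcript length behind it. The order of the groups under another Mxd4 length was not tested. Mycn adds nothing to these sums here, and RNA levels do not give the amounts of protein.

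Within the antagonists, Mxd4 held 48.9% and 59.8% of the TPM in shScr and 54.0% and 55.8% in shPkm1, but 31.1% and 31.5% in the shPkm2-labelled libraries. Mxd3 held 10.8% and 11.2%, 19.4% and 21.2%, and 34.5% and 32.1%, so that it was the largest antagonist by TPM in replicate 1 and in replicate 2 of the shPkm2-labelled libraries. Mxd1 held 9.93% and 5.93% in shScr and 0.891% to 1.58% in the other 4 libraries. Mxi1 held 15.7% to 24.8% and Mnt 6.01% to 10.2% across all 6 libraries. The TPM of Max partners per TPM of Max was 4.27 and 5.52 in shScr, 5.14 and 5.90 in shPkm1, and 4.43 and 4.19 in the shPkm2-labelled libraries, so that the shScr range overlaps both others.

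**Figure D3:**
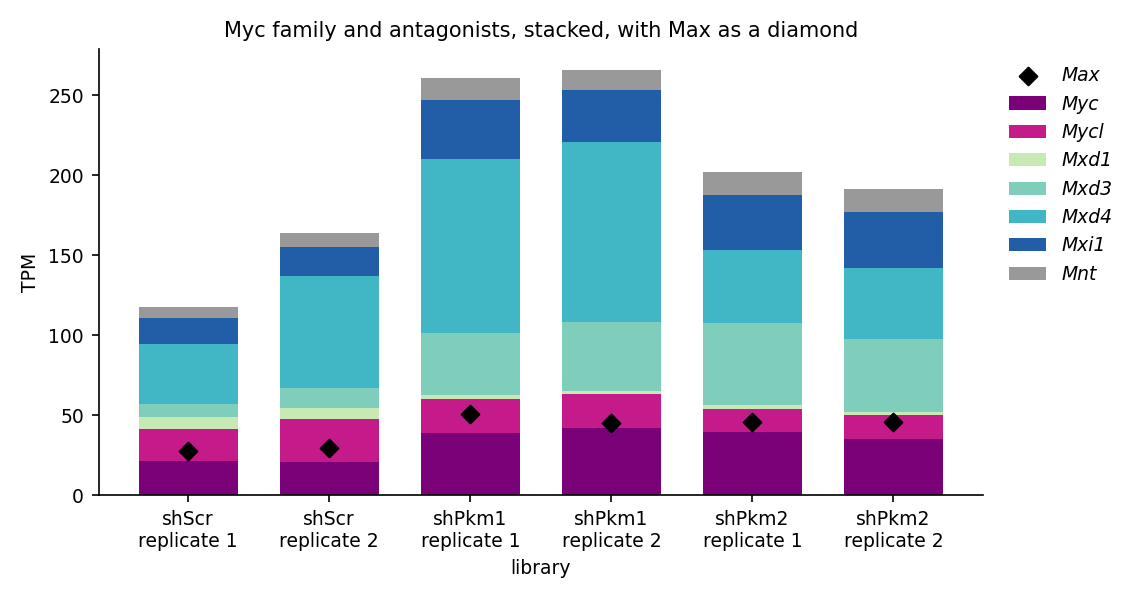
TPM of the Myc family (Myc, Mycl) and of the antagonists (Mxd1, Mxd3, Mxd4, Mxi1, Mnt), stacked for each of the 6 libraries, with Max as a diamond on the same axis. The antagonist part sums to 76.0 and 116.5 TPM in shScr, 201 and 202 in shPkm1, and 148 and 141 in the shPkm2-labelled libraries, and the Mxd4 layer is thickest in shPkm1.

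Mlxip (NCBI gene 208104, chr5:123394521-123457932, plus strand), the glucose-responsive MondoA, was the member that passed the threshold in no comparison on TMM-scaled counts. It was at 32.0 and 32.8 CPM in shScr, 36.4 and 32.9 in shPkm1, and 31.0 and 30.1 in the shPkm2-labelled libraries. The differences were 0.10 (95% interval -0.13 to 0.32, adjusted p = 0.429), -0.09 (-0.31 to 0.14, adjusted p = 0.482) and -0.18 (-0.41 to 0.04, adjusted p = 0.153) in the 3 comparisons. On log2(TPM + 1), where the median of all genes was 0.31 and 0.36, Mlxip was 0.45 (limma, adjusted p = 0.0133) and 0.40 (adjusted p = 0.0213) higher against shScr, so its direction in the shPkm2-labelled libraries depends on the scaling. On library totals the shPkm1 value was 0.29 (edgeR, adjusted p = 0.0418).

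Its partner Mlx, which is outside the member list, fell in both Pkm hairpin groups. Mlx was at 61.5 and 58.7 CPM in shScr, 29.8 and 32.8 in shPkm1, and 28.9 and 32.6 in the shPkm2-labelled libraries. It was 1.92-fold lower in shPkm1 (log2 -0.94, SE 0.107, adjusted p = 6.57e-06) and 1.96-fold lower in the shPkm2-labelled libraries (log2 -0.97, SE 0.107, adjusted p = 3.29e-06). The TPM of Mlx per TPM of Mlxip was 5.89 and 5.97 in shScr, 2.74 and 2.98 in shPkm1, and 2.89 and 3.28 in the shPkm2-labelled libraries, a ratio that library scaling does not touch. The end of Mlx overlaps the gene Psmc3ip. Mlxipl, which encodes the related factor ChREBP, had 1 count in shScr replicate 1 and 0 in the other 5 libraries.

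Of 3 known MondoA targets, 2 were tested, and both were called higher in shPkm1 than in shScr and lower in the shPkm2-labelled libraries than in shPkm1, comparisons in which 63.1% and 53.0% of all genes were called. Txnip, a regulator of glucose uptake, was at 69.0 and 68.1 CPM in shScr, 159 and 160 in shPkm1, and 73.0 and 74.6 in the shPkm2-labelled libraries. It rose by 1.22 (SE 0.0932, adjusted p = 1.92e-07) in shPkm1, and in the shPkm2-labelled libraries it was 0.11 from shScr (95% interval -0.10 to 0.31, adjusted p = 0.325) and -1.11 from shPkm1 (adjusted p = 3.73e-07). Klf10, a repressor of the Klf family, was at 44.9 and 42.4, 72.7 and 69.4, and 38.6 and 39.5 CPM. Its log2 fold changes were 0.70 (adjusted p = 3.5e-05), -0.16 (adjusted p = 0.164) and -0.86 (adjusted p = 6.28e-06). Arrdc4, the third target, had 1 and 1, 11 and 6, and 1 and 4 counts and was too low to test. Against shScr, 1 of the 2 tested targets was called higher in the shPkm2-labelled libraries on library totals, and 2 of 2 on log2(TPM + 1). Of all 12643 tested genes, 6095 and 6621 were called higher in these settings, where the medians of all genes were 0.33 and 0.36.

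**Figure D4:**
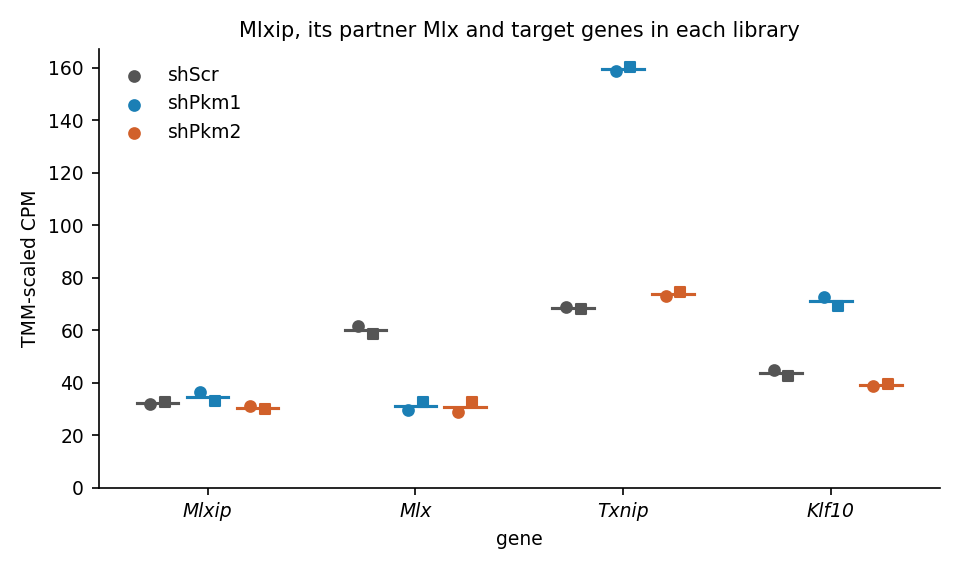
TMM-scaled CPM of Mlxip, its partner Mlx and the targets Txnip and Klf10 in each library; bars are group means of 2 libraries, circles replicate 1 and squares replicate 2. Mlx is near 60 CPM in shScr and at 28.9 to 32.8 in the other 4 libraries, and Txnip is at 159 and 160 in shPkm1 and between 68.1 and 74.6 elsewhere.

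The 9 member genes had 33 transcripts in the table, of which 27 were tested. Between shPkm1 and shScr 2 were called, the main forms of Mxd1 (log2 -2.16, adjusted p = 0.0121) and Mxd3 (1.65, adjusted p = 0.0235), where 10.8% of all tested transcripts were called (5.47% higher, 5.36% lower). Between the shPkm2-labelled libraries and shScr 4 were called, beside 17.2% of all (7.91% higher, 9.32% lower). They were the main forms of Mxd1 (-2.36, adjusted p = 0.00556), Mxd3 (1.77, adjusted p = 0.0129) and Mnt (0.49, adjusted p = 0.0319) and 1 form of Mycl (-1.09, adjusted p = 0.011). Between the shPkm2-labelled libraries and shPkm1 only the same form of Mycl was called (-0.78, adjusted p = 0.045), beside 7.91% of all (2.87% higher, 5.04% lower). That call was lost on library totals (0 called), where 4 and 8 member transcripts were called in the comparisons with shScr. The shares of all transcripts called on library totals are not given here, so these counts cannot be set against them. Mxd4 has 1 transcript, which held all of its counts. The 4 transcripts of Myc came in 2 pairs with the same estimated count in every library, so their counts do not separate the forms.

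The genes whose pattern over the 6 libraries was most like that of Myc, by Pearson correlation of log2 CPM among 10952 genes, were Fkbp2 (r = 0.9950), Trim39 (0.9944), H1f0 (0.9939), Ebag9 (0.9900) and Ccdc90b (0.9857). Fkbp2 was at 82.3 and 73.8, 94.2 and 100.3, and 91.6 and 90.1 CPM. For Mxd4, chosen for the highest TPM summed over the 6 libraries among Mxd1, Mxd3, Mxd4 and Mxi1, they were Mxra8 (0.9995), Surf4 (0.9980), Mogs (0.9976), Slc41a3 (0.9955) and Tgfbr2 (0.9948). Mxra8 was at 127 and 177.2, 205 and 212, and 112 and 115 CPM, and so repeats the gap between the shScr libraries. With 6 libraries in 3 groups, such correlations are a description and share every library's depth and composition.

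Genes that Myc is known to activate, 31 in the list used, were all tested. Between shPkm1 and shScr 10 were higher, 10 lower and 11 not called, with a median of 0.03. Ncl (0.78, SE 0.105, adjusted p = 2.8e-05), a nucleolar protein gene, the glutamine transporter gene Slc1a5 (0.78, adjusted p = 7.51e-05) and Tert (1.41, adjusted p = 0.00185, from as few as 13 counts) rose most. Hk2 (-1.63, adjusted p = 1.33e-07), a hexokinase gene, Ccnd2 (-1.32, adjusted p = 3.72e-05), a cyclin gene, and Polr1b (-0.92, adjusted p = 2.96e-05), of RNA polymerase I, fell most. With library totals the split was 13 higher and 8 lower, and on log2(TPM + 1) 16 higher and 3 lower.

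Between the shPkm2-labelled libraries and shScr 16 of the 31 were higher, 9 lower and 6 not called, with a median of 0.30. Tfap4 (1.81, adjusted p = 2.16e-06), a transcription factor gene, Tert (1.78, adjusted p = 0.000188) and Npm1 (1.496, adjusted p = 2.55e-07), a ribosome assembly gene, rose most. Slc7a5 (-1.42, adjusted p = 4.63e-08), an amino acid transporter gene, Bop1 (-1.15, adjusted p = 6.7e-07), another ribosome assembly gene, and Hk2 (-0.91, adjusted p = 1.27e-05) fell most. With library totals the split was 21 higher and 4 lower, and on log2(TPM + 1) 22 higher and 4 lower. Relative to shPkm1, 14 were higher, 3 lower and 14 not called in the shPkm2-labelled libraries, with a median of 0.28. Tfap4 (1.66), Cdc25a (1.07) and Npm1 (0.89) had the largest of the called rises, and the 3 that fell were Slc7a5 (-1.79), Bop1 (-0.59) and Shmt2 (-0.26). On library totals these counts were 20 higher and 2 lower. The TMM-scaled counts of this list stand beside the shares of all tested genes given above. These were 31.8% higher and 31.4% lower in shPkm1, 33.9% and 34.2% in the shPkm2-labelled libraries, and 25.7% and 27.3% between these groups. On library totals 5116, 6095 and 4280 of the 12643 genes were higher and 2656, 2702 and 2699 lower. On log2(TPM + 1) 6189 and 6621 were higher and 1737 and 2123 lower against shScr.

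Of 7 genes that Myc is known to repress, Cdkn2b has no row and 6 were tested, of which 5, 3 and 5 were called in the 3 comparisons, beside 63.1%, 68.0% and 53.0% of all genes. In shPkm1 Ndrg1 (1.60, adjusted p = 2.31e-08) and Gas1 (1.21, adjusted p = 1.91e-05) rose and Gadd45a (-1.23, adjusted p = 1.6e-06), the cycle inhibitor gene Cdkn1a (-0.89, adjusted p = 4.82e-05) and Cdkn1b (-0.62, adjusted p = 0.000868) fell, with a median of -0.38 over the 6 (-0.18 on library totals and 0.03, with 2 higher and 2 lower, on log2(TPM + 1)). In the shPkm2-labelled libraries Gas1 rose (0.91, adjusted p = 0.000166), Cdkn1a (-3.81, adjusted p = 8.4e-11) and Gadd45a (-2.45, adjusted p = 1.93e-09) fell, and the median was -0.11. On library totals these counts were 3 higher and 2 lower, with a median of 0.22. Both medians moved with the shScr library left out. Without shScr replicate 1 they were -0.15 in shPkm1 and 0.02 in the shPkm2-labelled libraries, and without shScr replicate 2 they were -0.59 and -0.22. Relative to shPkm1, Ndrg2 (0.39) and Cdkn1b (0.34) were higher and Cdkn1a (-2.92), Ndrg1 (-1.53) and Gadd45a (-1.22) lower in the shPkm2-labelled libraries, with a median of -0.76. The calls of Ndrg2 and Cdkn1b were lost with DESeq2 and without any 1 of the 4 Pkm hairpin libraries, where 0 were higher and 3 lower. Cdkn1a is also known to rise in muscle differentiation, and its drop moved with that of Myog.

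Coactivators and corepressors used by the network, 15 genes, gave 3 higher, 6 lower and 6 not called in shPkm1, with a median of -0.15. Sin3a (0.67), a corepressor scaffold that Mxd proteins bind, rose with Ncor1 (0.33) and Ep400 (0.24), while its relative Sin3b (-0.82), Zbtb17 (-0.58), the Miz1 partner of Myc, and Wdr5 (-0.35) fell most. With library totals 6 were higher and 2 lower (median 0.05), and on log2(TPM + 1) 7 and 1 (median 0.24). Without shPkm1 replicate 1, 4 were called in place of 9. In the shPkm2-labelled libraries, 9 were higher, 3 lower and 3 not called, with a median of 0.42. Sin3a (1.23, adjusted p = 1.57e-07), Hdac1 (0.91, adjusted p = 2.71e-06) and Hdac2 (0.70, adjusted p = 0.000384) rose most, and Sin3b (-0.89) and Zbtb17 (-0.62) fell most. With library totals 11 were higher and 2 lower. Relative to shPkm1, 8 of the 15 were higher and none lower (11 and 0 on library totals), with a median of 0.46, led by Hcfc1 (0.88), Hdac1 (0.83) and Ruvbl1 (0.61). On TMM-scaled counts 63.1%, 68.0% and 53.0% of all tested genes were called in these comparisons, in the last 25.7% higher and 27.3% lower. The count of 8 called there is close to the overall share. Counts of all genes in the other settings are those given for the activated genes.

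Among 9 genes that act on the stability of the Myc protein, 5 were higher and 2 lower in each comparison with shScr, with medians of 0.28 and 0.39, beside 63.1% and 68.0% of all genes called. On library totals the medians were 0.47 and 0.71, where those of all genes were 0.19 and 0.33. Cip2a, which shields Myc from dephosphorylation, rose by 1.68 (adjusted p = 3.45e-07) in shPkm1 and by 3.23 (adjusted p = 2.3e-10) in the shPkm2-labelled libraries. Gsk3b (0.46) and Skp2 (0.37) also rose most in shPkm1, and Aurka (2.03) and Skp2 (1.53) in the shPkm2-labelled libraries. Usp28, a deubiquitinase gene, fell by 0.82 in shPkm1 and by 1.26 in the shPkm2-labelled libraries. Without shPkm1 replicate 1, 4 of the 9 were called in shPkm1 in place of 7. Relative to shPkm1, Aurka (1.73), Cip2a (1.55) and Skp2 (1.17) were higher and Usp28 (-0.43) lower in the shPkm2-labelled libraries, with a median of 0.07. The split was 4 higher and 0 lower on library totals. In this comparison 53.0% of all genes were called on TMM-scaled counts, and 6979 of 12643 on library totals. Aurka, Cip2a and Skp2 are also genes of dividing cells, and moved with Mki67.

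**Figure D5:**
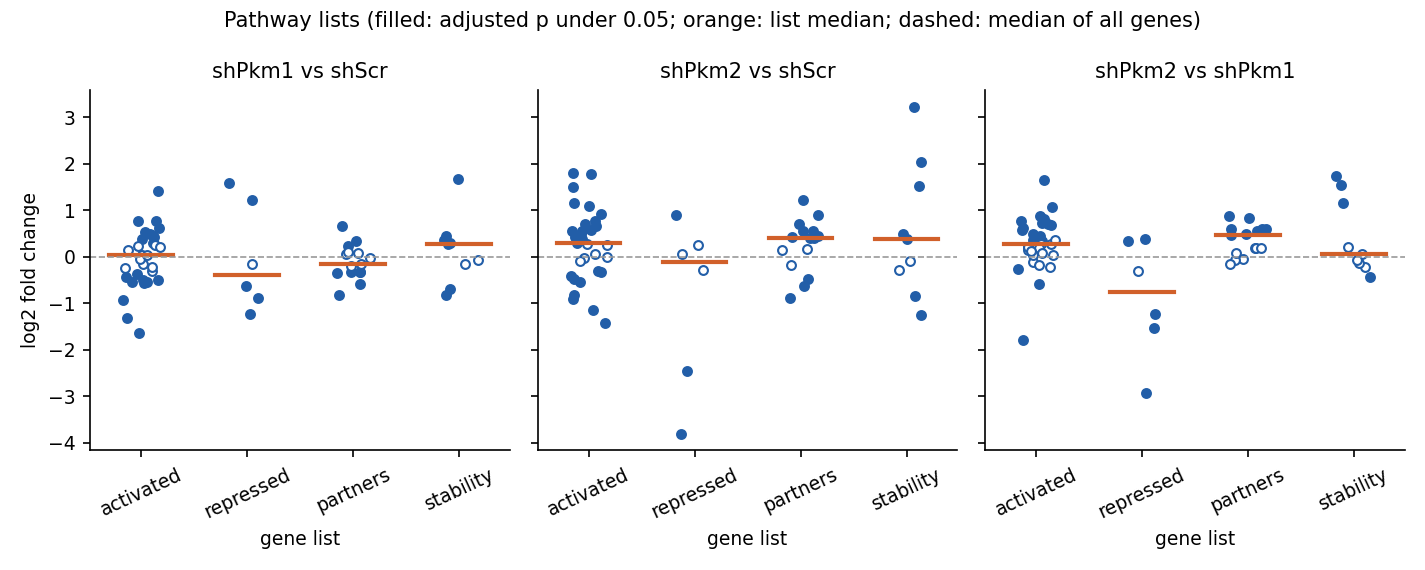
Log2 fold change of each tested gene in 4 lists (genes activated by Myc, genes repressed by Myc, coactivator and corepressor partners, and Myc protein stability) in the 3 comparisons; filled points have an adjusted p under 0.05, orange bars are list medians and the dashed line is the median of all tested genes. Activated genes lie on both sides of 0 against shScr, with medians of 0.03 and 0.30, and Cdkn1a is the lowest point at -3.81 in the shPkm2-labelled libraries.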

How the data were processed

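Per the labels' protocols, TRIzol was used for the RNA and a sequencing company (BGI Americas) prepared the libraries. The submitters' processing notes name mm10, HISAT, StringTie, Bowtie, RSEM and DESeq2, without versions or roles. The deposited table gives, per the file headers, 3 measures (estimated count, FPKM, TPM) of each of 57920 RefSeq transcripts in each of 6 libraries. The deposited estimated counts are not normalized, and 48.0% to 50.7% of them are whole within 0.005. In the deposited TPM values the authors took account of transcript length and library total. The deposited FPKM values were not used, nor were 9 columns of group means.

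Counts were summed per NCBI gene and rounded. RefSeq gene names (GRCm38.p6) matched 17445 genes, and 113 had none. Genes passing filterByExpr (minimum count 10, minimum total 15) were tested with edgeR 4.0.16 in R 4.3.3: TMM scaling, 1 coefficient per group over all 6 libraries, quasi-likelihood F-test, Benjamini-Hochberg adjustment, threshold 0.05. CPM values are TMM-scaled; the factors were 0.856 and 0.918 in shScr, 1.03 and 0.999 in shPkm1, and 1.12 and 1.11 in shPkm2, and the common biological coefficient of variation was 0.0851. Transcripts were fitted likewise on unsummed counts. Intervals are 95% intervals of the fit. The scripts were tested on simulated data.

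Alternatives were DESeq2 1.42.0, its size factors in edgeR, library totals, other filters, only the groups compared, a replicate block, leaving out each library and, chosen after seeing the data, limma 3.58.1 on log2(TPM + 1). All members are named, with Mlx, Mlxipl, Mga, Txnip, Arrdc4 and Klf10, up to 3 risen and 3 fallen called genes of each pathway list by size in each comparison, the 5 genes most like Myc and the Mxd gene with the most TPM summed over libraries (mean of at least 50 counts), and the markers Myog, Mymk, Mki67, Top2a and Pkm. Some genes that this rule names are not reported here. Members and lists were chosen with earlier results of these data known. Molecules were not stated to be tagged, so counts carry more than counting error.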

Additional observations from a re-analysis of the deposited data

How the results depend on the processing

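Of the alternative values for the members' fold changes, 357 kept their direction and their side of the threshold, 8 lost a call, 5 gained one and 8 changed sign, each of the last from a difference that was not called. Of the alternative counts of calls, 202 stayed within 1.5 times the reported count and 14 did not. Library totals turned the differences between the shPkm2-labelled libraries and shPkm1 to 0.016 for Max, 0.105 for Mxd1 and 0.053 for Mxi1, and that of Mlxip against shScr in the shPkm2-labelled libraries to 0.24. The last was 0.40 on log2(TPM + 1), where Mxd1 between Pkm hairpin groups was 0.026. With a library left out that Mxd1 value ran from -0.175 to 0.129 (without shPkm1 replicate 2 and without shPkm1 replicate 1), and it was 0.065 without shPkm2 replicate 2. On library totals the called share that was higher among all genes went from 50.3%, 49.8% and 48.4% to 65.8%, 69.3% and 61.3% in the order of the comparisons, and on log2(TPM + 1) to 78.1%, 75.7% and 53.8%.

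Called genes repressed by Myc in the shPkm2-labelled libraries numbered 5 on library totals and 5 on log2(TPM + 1), in place of 3. Relative to shPkm1 they numbered 3 with DESeq2, in place of 5, and 3 to 6 with a library left out. With a library left out, called partners in shPkm1 numbered 4 to 9, called stability genes 4 to 7, and called members 6 to 8 in shPkm1, 5 to 8 in the shPkm2-labelled libraries and 2 between these groups. Called member transcripts on library totals numbered 4, 8 and 0 in place of 2, 4 and 1, with no share of all transcripts given for that setting. Leaving Mnt out raised the Myc family share of TPM to 24.7% in shPkm1 and 28.7% in the shPkm2-labelled libraries. The shScr share rose too, by less than its SD of 4.55 percentage points between 2 libraries.

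Samples with the same replicate number did not deviate together across groups (correlations of -0.0256, 0.0418 and 0.0527), so the numbers were not taken as a pairing. With a replicate block, called members numbered 8, 7 and 2, as without it, and called member transcripts numbered 1 between shPkm1 and shScr and 0 between the Pkm hairpin groups.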
